A study of Solanum lycopersicum with 18 samples.

Results

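Polycomb Repressive Complex 2 (PRC2) silences genes by adding the methyl mark H3K27me3 to a lysine of histone H3. Its catalytic subunit is an Enhancer of zeste, E(z), protein with a SET domain, and the WD40 protein FIE (FERTILIZATION INDEPENDENT ENDOSPERM in Arabidopsis) is a core subunit that the enzyme needs for its activity. VERNALIZATION INSENSITIVE 3-LIKE (VIL) proteins carry a PHD finger and join PRC2 at target genes, and are best known in Arabidopsis for silencing the flowering repressor FLC after cold. The genes described here are 4 of the 35825 genes in the RNA-seq table. They were chosen by identifier and not by a measured value, but with earlier results of these data known. They are *CREL* (Solyc05g018390), the tomato VIL gene that is mutated in *crel*, the E(z) genes *SlEZ1* (Solyc01g079390) and *SlEZ2* (Solyc03g044380), and *SlFIE* (Solyc07g064090). The question they bear on is whether the PRC2 machinery itself is altered when CREL is lost.

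RNA was sequenced from shoot apices, with about 3 expanding leaves, of tomato plants in the M82 background at 28 days after germination. There were 7 *crel* libraries, 2 from *crel-2*, 3 from *crel-1* and 2 from *crel-3*, and 3 wild-type libraries. *crel-2* is a fast neutron allele that lacks the first exons of *CREL*, *crel-1* carries a stop codon in an exon and *crel-3* a deletion of a single base. H3K27me3 was profiled in the same tissue, in 2 *crel* and 2 wild-type replicates. The RNA-seq table gives 1 value per gene that does not come from the authors' own comparison, the mean normalized count over all 10 libraries, which is each library's count divided by its size factor and then averaged. This value pools *crel* with wild type and has no replicate error, and total counts per library were not analysed here. A difference between *crel* and wild type, or between the *crel* lines, was therefore not analysed here for any of the 4 genes, and the question above was not tested. Peaks of H3K27me3 were not assigned to these genes, because the lists carry SL2.40 sequence names, whereas the methods name SL3.0, and gene positions on neither build were used here. The values below describe how many reads were counted for each gene, with *crel* and wild type pooled.

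All 4 genes were listed, and 3 of them had a mean above 0. Of all genes, 34423 had a mean above 0, with a median of 39.4 and an upper quartile of 300.1. *CREL*, *SlEZ1* and *SlEZ2* all lay above that quartile, whereas *SlFIE* was listed at 0. For *CREL* and *SlEZ1* this no longer held among genes with a mean of at least 10 or among genes with the same version suffix in their identifier. Counts are not corrected for transcript length and no lengths of these gene models were used. The place of a gene in this order is thus a place by read counts, and the members are not ranked against each other as RNA levels.

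**Figure D1:**
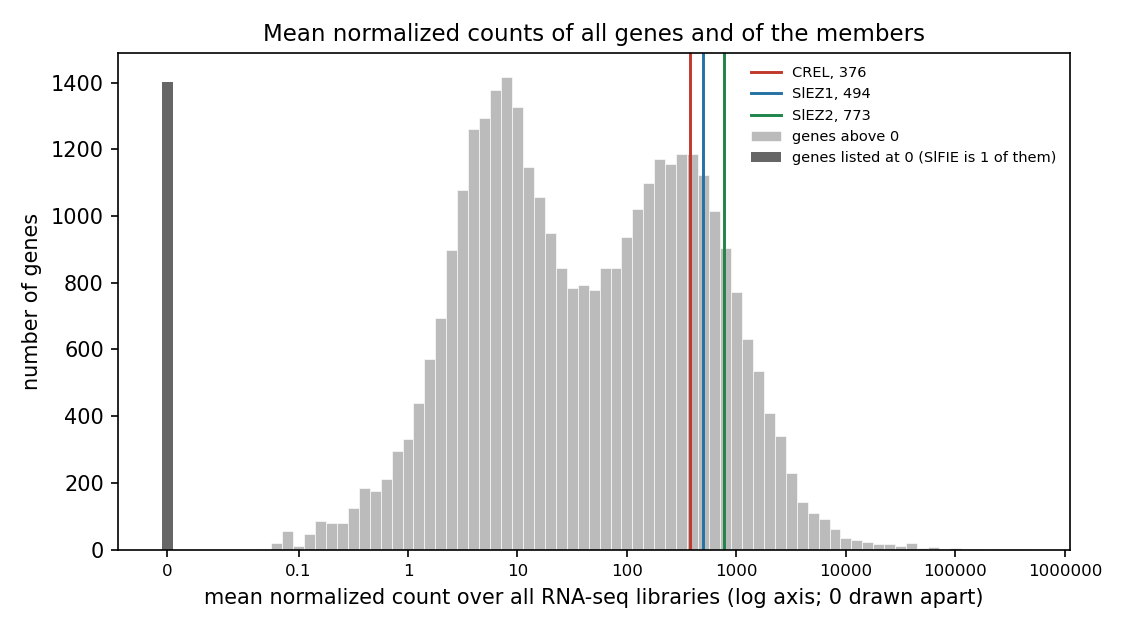
Number of genes (vertical axis) by mean normalized count over the 10 RNA-seq libraries (horizontal log axis, with genes listed at 0 drawn apart on the left). Coloured lines mark *CREL* at 376, *SlEZ1* at 494 and *SlEZ2* at 773, all within the upper of the 2 peaks of the distribution, and the dark bar holds the 1402 genes listed at 0, of which *SlFIE* is 1.

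*CREL*, which encodes the PHD-finger protein that is taken to recruit PRC2, had a mean normalized count of 376. This was 9.55 times the median gene, and 7434 genes had a higher mean, which put *CREL* at percentile 78.4. Among the genes of version 3, the suffix that its identifier carries, it was at percentile 61.5, and among genes with a mean of at least 10 at 67.7. Reads of *CREL* were thus obtained from these apices, although 7 of the 10 libraries come from plants that carry a mutation in it. In *crel-1* and *crel-3* the change is of a single base, so that reads can still come from the whole transcript, whereas in *crel-2* the first exons are missing from the genome. The share of the mean that the 3 wild-type libraries contributed is not known. The value is therefore no check of the genotype labels.

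The E(z) genes encode the subunit that methylates histone H3, and in Arabidopsis the genes of this family that act in the shoot are *CURLY LEAF* and *SWINGER*. *SlEZ1* had a mean normalized count of 494, which is 12.5 times the median gene. Its mean was exceeded by 6048 genes, at percentile 82.4. *SlEZ2* had a mean normalized count of 773, or 19.6 times the median gene. In all, 4030 genes had a higher mean, so *SlEZ2* stood at percentile 88.3. Among the genes of version 3 alone *SlEZ1* was at percentile 68.8 and *SlEZ2* at 79.3, and among genes with a mean of at least 10 they were at 73.7 and 82.5, so *SlEZ1* lay above the upper quartile of all genes above 0 but not of either of these sets. Neither E(z) gene was near the low end of the table where a few reads decide the mean. How far either value varied between libraries is not known.

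*SlFIE*, the gene of the WD40 subunit, was listed with a mean of 0, and so had no place among the genes above 0. Counts are not negative, so no reads were counted for it in any of the 10 libraries, unless outlying *crel* counts were replaced. Its mean thus holds no difference between *crel* and wild type to describe. The smallest mean above 0 in the table was 0.0550, found in 2 genes. Of all 35825 genes, 1402 were listed at 0, which is 3.91%. On chromosome 7, which holds *SlFIE*, 55 of 2507 genes were at 0, or 2.19%. On chromosomes 1 to 12 together, 924 of 33903 genes were at 0. The share of 3.91% also counts genes outside these chromosomes, so it is not set against that of chromosome 7. The identifier of *SlFIE* ends in version 3, as do those of the other 3 members, and a mean of 0 was less frequent in this class. It was found in 180 of 13431 genes of version 3, or 1.34%, in 238 of 7816 genes of version 2, or 3.05%, and in 801 of 13411 genes of version 1, or 5.97%. *SlFIE* thus belongs to a small group within its class, whose median was 230.2. Genes whose identifier carries none of these suffixes are in no class here. Why *SlFIE* was listed at 0 was not tested, and the 0 is not read here as absence of its RNA from the apex.

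The genes next to each member, taken in the order of their identifiers along the chromosome, show where in the table *SlFIE* lies. Of the 5 genes on either side of *SlFIE*, 9 had a mean above 0. They included Solyc07g064080.3 just before it, with a mean normalized count of 890, and Solyc07g064110.3, the next but one after it, with 404. The exception was Solyc07g064100.1, the gene that directly follows, which was also listed at 0. These 2 genes therefore formed a gap between genes that were well covered by reads. On chromosomes 1 to 12, 924 genes were listed at 0, and 151 of them, or 16.3%, had a direct neighbour that was also at 0. Of the 32979 genes above 0, 1651 had such a neighbour, which is 5.01%. Among the 176 genes of version 3 at 0 on these chromosomes, 30 had a neighbour at 0, or 17.0%. These shares describe the table and were chosen after the values were seen.

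The same neighbourhoods of the other members held mostly genes with a lower mean, a count that lies near the percentiles of 78.4, 82.4 and 88.3 that *CREL*, *SlEZ1* and *SlEZ2* had among all genes, so nothing particular to these places is read from it. *CREL* had a higher mean than 9 of its 10 neighbours, whose means ran from 0.799 to 634 with a median of 21.3. Of these, 8 were of version 1, a class with a median of 6.46. The 2 of version 3 both came before *CREL* in identifier order. Their means were 634, above that of *CREL*, and 249, below it. *SlEZ1* exceeded 9 of 10, with neighbours between 4.50 and 2862 and a median of 161. Of its neighbours 4 were of version 1 and 6 of version 3, of which 5 were lower. For *SlEZ2* the neighbours ran from 6.22 to 6092, with a median of 25.6, and again 9 of 10 were lower. Here 5 were of version 1, 3 of version 2 and 2 of version 3, and the 2 of version 3 were lower. The neighbours of *SlFIE* ran from 0 to 15423, with a median of 235.

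**Figure D2:**
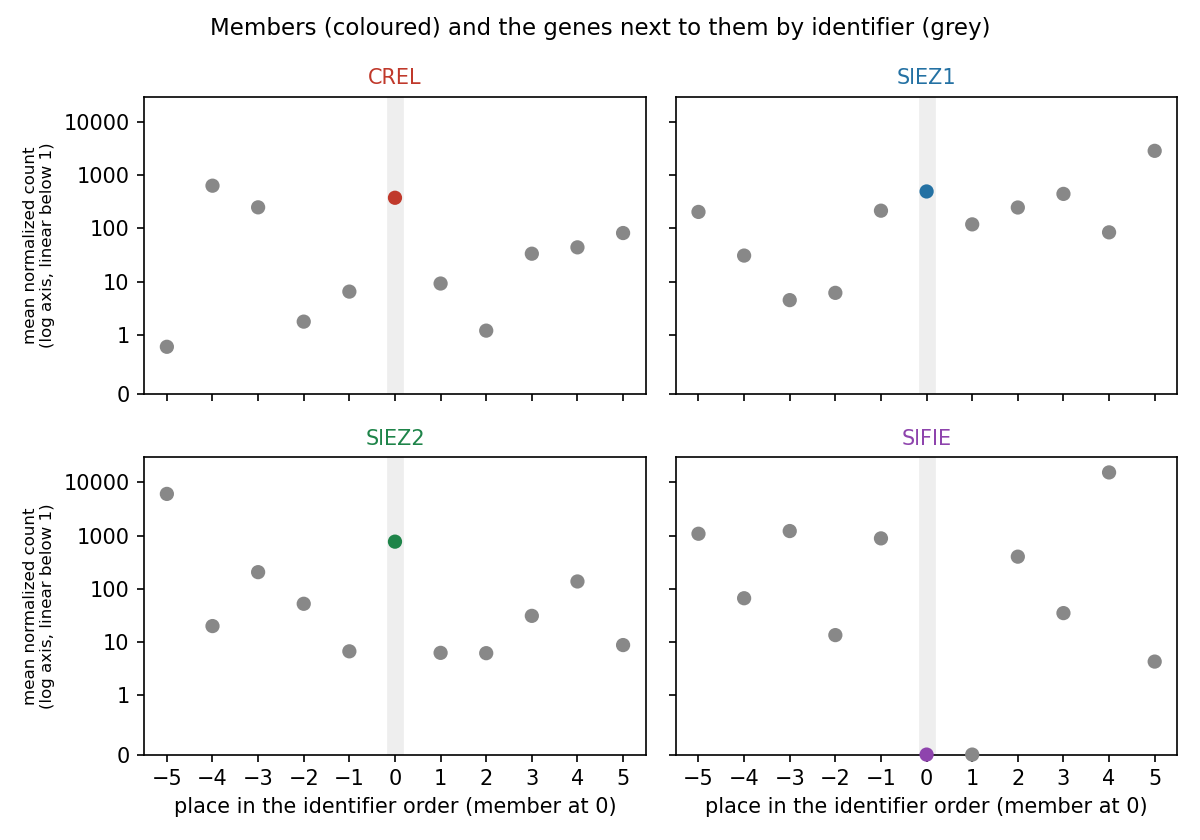
Mean normalized count over the 10 RNA-seq libraries (vertical log axis, linear below 1) of each member (coloured, at place 0) and of the 5 genes before and after it in identifier order (grey). *CREL*, *SlEZ1* and *SlEZ2* each lie above 9 of their 10 neighbours, and *SlFIE* lies at 0 together with the gene that directly follows it.

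Of the other genes of the pathway, 4 were looked up by identifier and 2 were listed. Solyc11g020290.2, which the study annotates as a WD-40 repeat-containing protein MSI1, had a mean normalized count of 91.6 and stood at percentile 58.7. MSI1 is the histone-binding WD40 subunit of PRC2 in Arabidopsis, and whether this tomato gene serves in the complex is not known from these data. Its annotation comes from a list of genes that the study selected on these libraries, so the gene was not chosen independently of them. *SlMBP8* (Solyc12g087830.2), a MADS-box gene that the study groups with FLC, the target of VIL proteins in Arabidopsis, had a mean of 87.0 and stood at percentile 58.2. Both lay above the median gene but below the upper quartile that *CREL*, *SlEZ1* and *SlEZ2* exceeded. Their identifiers are of version 2, a class with a median of 35.7, whereas the members are of version 3, with a median of 230.2. The 2 sets of genes are therefore not ranked against each other. *SlMBP15* and *SlMBP25*, of the same group, were looked up but not listed, and so have no value here.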

How the data were processed

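For RNA-seq, the authors used Trimmomatic to remove adapters, STAR to align reads against the SL3.0 build, featureCounts to obtain gene counts, and DESeq2 to set the 7 *crel* libraries against the 3 of wild type. Versions, the annotation release, strand settings and the handling of reads on overlapping genes are not given in the sources used here. The signal used is the authors' mean normalized count, that is, counts divided by size factors and averaged over 10 libraries, as deposited. By default DESeq2 replaces outlying counts in groups of at least 7 replicates before this mean is taken, and whether it did so here is not known. The other 6 columns of the deposited table hold the authors' fold changes, their standard errors, test statistics, p-values, adjusted p-values and calls, and were not used. The planned edgeR test needs counts per library and was not run. The deposited H3K27me3 peak lists, made with Bowtie2, SAMtools and HOMER, carry sequence names of SL2.40, whereas the methods state that reads were mapped to SL3.0. Which build their positions follow was not tested, and they were not used.

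The percentile of a gene is the percentage of the genes with a mean above 0 that have a lower mean, computed with Python 3.11.15, numpy 2.4.6 and pandas 2.3.3, drawn with matplotlib 3.10.9 and tested on simulated data. Wilson intervals at 95% from scipy 1.17.1 were put around each percentile, and every alternative fell outside them. The genes are a complete list and not a sample, so these intervals measure no error of a percentile. A table of RefSeq genes (assembly SLM_r2.1) holds none of the member identifiers. It holds the symbols EZ1, EZ2 and FIE on the same chromosomes as the identifiers of *SlEZ1*, *SlEZ2* and *SlFIE*, which are 3 of the 4 members, and it was used for nothing else. The members, and the genes named beside them, were chosen with earlier results of these data known. Genes named are the 4 members, 4 further genes of the pathway fixed by identifier, and the genes next to *SlFIE*, which were added after their values were seen.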

Additional observations from a re-analysis of the deposited data

How the results depend on the processing

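The percentiles depend on the genes they are taken over, as each choice adds or removes genes by construction. With the genes at 0 included, *CREL* stood at percentile 79.2, *SlEZ1* at 83.1 and *SlEZ2* at 88.7. Among genes with a mean of at least 1 they stood at 77.4, 81.6 and 87.7, in the same order of genes, and among those with a mean of at least 10 at 67.7, 73.7 and 82.5. In comparisons added after seeing the data, they stood at 79.2, 80.5 and 87.9 among genes of their own chromosome, and at 61.5, 68.8 and 79.3 among genes of version 3. *CREL* and *SlEZ1* fell below the upper quartile among genes with a mean of at least 10 and among genes of version 3, and *SlEZ2* stayed above it in each of these settings. *SlFIE* has no percentile among genes above 0.

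Values per coding length, the test of *crel* against wild type with its alternatives, and H3K27me3 peaks at the genes were planned and not run. Lengths and pairwise identities of the members' proteins were also planned and not run. Gene lengths, counts per library, gene positions and protein sequences were not among the sources used. No paired analysis was possible because the table used gives no value per replicate, and no replicate was left out for the same reason. The depth behind each mean is not known, so no interval is given for it.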
